A study of Rattus norvegicus and Ovis aries with 113 samples.

Results

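The RNA of sheep sperm was compared with the RNA of the brain of the same animals. The comparison used the 5 sheep libraries labelled sperm, each set against the sum of the 10 brain region libraries that carry the same animal number, which gave 5 pairs from 55 sheep libraries, out of 113 libraries in the series. All 5 sheep (Ovis aries, numbered 687, 688, 690, 694 and 699) were males past puberty that had received no treatment. Their breed, age in numbers and the way the semen was collected or purified are not stated in the labels. The brain regions were basal ganglia, cerebellum, entorhinal, frontal, motor, prefrontal, posterior parietal and visual cortex, hippocampus and pons. The title of the series asks for genes that bridge the nervous and the reproductive system, and every contrast below is one of tissue. Unless another order is named, 5 values in a row belong to sheep 687, 688, 690, 694 and 699.

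Mature sperm carry little cytoplasm and make almost no new RNA. What RNA they hold was mostly made earlier, in the testis, when round spermatids built the tail, the acrosome (the enzyme sac over the head that opens at the egg) and the compacted chromatin, in which transition proteins and then protamines take the place of histones. An ejaculate also carries fluid and cells from the epididymis, accessory glands and genital tract, such as epithelial cells and white blood cells. Brain RNA comes from neurons, astrocytes, oligodendrocytes, microglia and vessels.

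Levels are given as CPM, the counts of a gene for every 1000000 counts of its library, after 4 placeholder genes (LOC121818850, LOC121818849, LOC114112490 and LOC114112704) had been left out of the totals. These 4 entries took 85.2%, 22.4%, 52.9%, 60.4% and 75.8% of the sperm counts and 6.69% to 8.37% of the pooled brain counts. The counts that remained came to 9.66, 38.1, 6.45, 11.7 and 11.5 M (M for 1000000 counts) in sperm and to 515 to 568 M in pooled brain, so that 3 counts correspond to 0.311, 0.0787, 0.465, 0.256 and 0.261 CPM in sperm. Mitochondrial transcripts held 1.42%, 8.02%, 23.8%, 15.9% and 2.46% of these counts in sperm and 19.3% to 21.8% in brain. The sperm libraries were less alike than the pooled brain columns. Pearson's r across genes, a description over genes that are not independent, ran from 0.651 to 0.759 among sperm and from 0.988 to 0.992 among brain columns. Without the 688 sperm library it ran from 0.665 to 0.759 among sperm. Each brain column sums 10 libraries and holds more counts than any sperm library, and the part of this in the difference was not tested. The 688 sperm library had the smallest share in the 4 entries and the most counts left. Most counts of list members are given with and without it, while overlaps of columns and most values of single genes are given with all sperm libraries. Below, "without 688" means that this sperm library alone was left out, and leaving out another sheep means that both its columns were. Labels give no separate cultures or litters beyond the animal numbers, so each sheep counts as 1 replicate.

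The sperm label was checked against PRM1, TNP1 and ODF1. PRM1 encodes protamine, the main protein of sperm chromatin, and its level was 3682, 53.4, 1139, 369 and 4259 CPM in sperm, with no count in any brain column. TNP1, a transition protein that precedes the protamines, stood at 250.1, 1.60, 13.2, 36.9 and 95.1 CPM in sperm and at 0.0135 to 0.0348 CPM in brain. ODF1, a protein of the outer dense fibres of the tail, stood at 72.0, 1.99, 12.1, 22.0 and 144 CPM in sperm and at 0.0174 to 0.0505 CPM in brain. All 5 sperm libraries lay above all 5 brain columns for each of these markers, and the 688 library was the lowest of the sperm libraries for each. Within a sheep, the log2 ratio of sperm to brain, with 0.5 CPM added to both, was 10.67 ± 2.61 for PRM1, 5.85 ± 2.65 for TNP1 and 5.48 ± 2.26 for ODF1 (mean ± SD, n = 5). Without the 688 pair these means were 11.65, 6.81 and 6.28. The 688 library held these markers at low levels beside 23057 CPM of KRT13, a keratin of squamous epithelium.

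**Figure D1:**
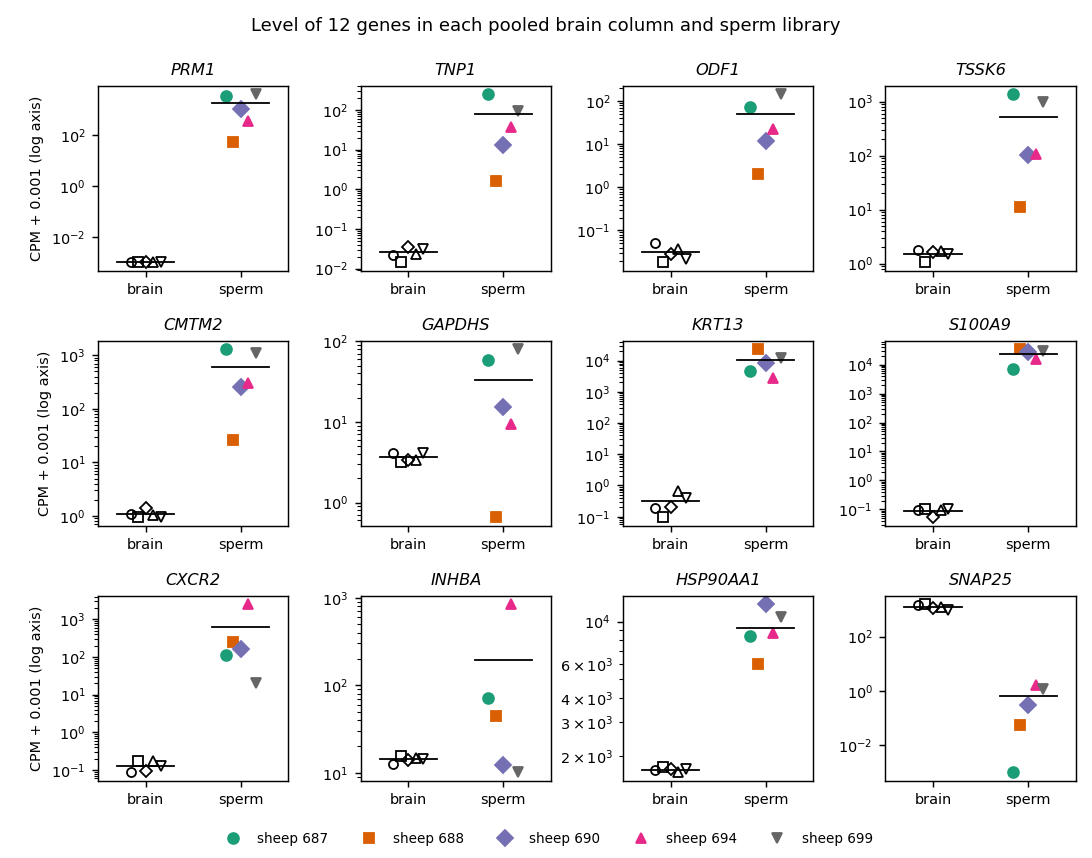
Levels of 12 genes in the 5 pooled brain columns (open symbols) and the 5 sperm libraries (filled symbols), as CPM + 0.001 on log axes that differ between panels; a symbol shape stands for a sheep and the horizontal line for the mean of 5. In the PRM1 panel the brain columns are all at 0 and the 688 sperm library, at 53.4 CPM, is the lowest of the sperm libraries, while in the KRT13 and S100A9 panels the 688 library is the highest.

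Across the whole table, 22908 of 31300 genes had enough counts to test, and 14628 of them (63.9%) were called, that is, they had an adjusted p below 0.05 (edgeR's quasi-likelihood test, Benjamini-Hochberg) and a change of at least 1 on the log2 scale. Of the genes tested, 6199 (27.1%) were higher in sperm and 8429 (36.8%) lower, and the median log2 fold change over all genes was -0.51. Without the 688 sperm library, 15878 of 24012 genes (66.1%) were called, 6521 (27.2%) higher and 9357 (39.0%) lower. Each count of a gene list below is to be read against these shares. The split depends on the scaling: with TMM factors 42.4% of calls were higher in sperm. With upper quartile factors this was 59.2% (8323 higher, 5725 lower) and with plain totals 28.4% (4343 higher, 10976 lower). These settings moved the median gene by 0.94 and -0.92 on the log2 scale. The pairing of sperm and brain by sheep, entered as a block, lowered the number of genes called higher to 4086 and left 8021 lower. On plain CPM, 8428 of the 8429 genes called lower were lower in all 5 sheep, whereas 2801 of the 6199 called higher were higher in all 5. On the same scale, all 5 sperm libraries lay above all 5 brain columns for 2528 genes tested (11.0%) and below them for 11377 (49.7%). The calls used TMM factors, 0.480 to 0.952 in sperm and 1.39 to 1.45 in brain, so plain CPM sets sperm lower against brain than the fit does. How much of the difference between these counts comes from the scale was not tested. Levels, sums and overlaps below are also on plain CPM. Where leaving out 1 sheep ended the call of a gene whose fitted log2 fold change is given, or moved that value by over 1.5-fold, the value without it follows in the same paragraph; for sheep 688 a move is given without its sperm library alone unless the pair is named. Log2 fold changes below are of sperm against brain with TMM factors, over 5 sperm libraries and 5 brain columns. The standard error (SE), where given, is the size of the log2 fold change divided by the square root of the test's F statistic. It was derived from the test and is not an error that the fit itself reports. In bulk RNA, fewer cells of a type and less RNA per cell cannot be told apart.

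Transcripts of sperm chromatin proteins had the highest median fold change of the lists of sperm components. All 8 genes of this list were called higher, with a median log2 fold change of 13.66 (13.75 without 688, again 8 of 8), and for 7 of the 8 the sperm libraries did not overlap the brain columns. The list summed to 5516, 167, 1421, 783 and 5343 CPM in sperm and to 2.07 to 2.53 CPM in brain. PRM1 was at least 1668700-fold higher in sperm, taking 3 counts over all 5 brain columns as the floor for its count of 0. PRM2, the second protamine, had 1 count in brain against 5958 in sperm, a ratio of 202620 (95% counting interval 36353 to 8004500) and of 393240 without 688; the interval covers counting error only. Its fitted log2 fold change was 17.79. PRM3, of the protamine cluster, stood at 461, 4.98, 146, 176 and 331 CPM against 0 to 0.0136 CPM in brain (log2 fold change 15.90, SE 1.45, adjusted p = 6.8e-06). The transition protein TNP2 stood at 328, 2.86, 31.0, 54.3 and 263 CPM against 0 to 0.0159 CPM (log2 fold change 14.90, SE 1.58, adjusted p = 1.7e-05). HMGB4, a chromatin protein of spermatids, stood at 438, 1.23, 18.6, 67.4 and 103 CPM in sperm and at 0.0251 to 0.137 CPM in brain (log2 fold change 11.66, SE 1.55, adjusted p = 7.0e-05). TNP1 had a log2 fold change of 12.42 (adjusted p = 2.0e-05). For PRM1, PRM2, PRM3, TNP1, TNP2 and HMGB4 the 688 library was lowest and 687 or 699 highest. H1-6, the testis linker histone that is in place before the transition proteins, did not share that order: it stood at 7.87, 99.8, 24.8, 21.5 and 21.0 CPM, highest in 688, against 0.420 to 0.941 CPM in brain, with a log2 fold change of 6.95 and 5.50 without 688. Without 687, TNP2, HMGB4 and TNP1 were at 14.21, 10.04 and 11.16 on the log2 scale. Without 694, TNP2 was at 15.60 on the log2 scale. Without 699, TNP2 and PRM2 were at 14.19 and 17.15 on the log2 scale.

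Genes for the sheath and dense fibres of the tail were mostly called higher. Of 13 genes tested, 10 were called higher and none lower (median 3.05), also without 688 (10 of 13, median 3.20), with 7 higher under the block and 6 on plain totals; for 2 of the 13 all sperm libraries lay above all brain columns. Their sum was 962, 16.7, 104, 190.5 and 1028 CPM in sperm against 51.3 to 60.9 CPM in brain. On plain CPM the 687 and 699 libraries stood far above brain, 690 and 694 less so, and 688 below it. FSIP1, a protein bound to the fibrous sheath, stood at 368, 1.60, 30.5, 91.8 and 90.6 CPM in sperm and 3.22 to 5.04 CPM in brain (log2 fold change 5.65, SE 1.01, adjusted p = 5.2e-04). SPA17, which binds the anchoring proteins of the sheath, stood at 159, 4.90, 17.8, 21.7 and 196 CPM and 4.02 to 6.42 CPM (log2 fold change 4.60, SE 0.83, adjusted p = 5.7e-04). With 688 set aside, the remaining sperm libraries lay above all brain columns for FSIP1 and SPA17 too. ODF1 had a log2 fold change of 11.38 (adjusted p = 1.2e-05) and 11.54 without 688. ODF2, a dense fibre protein that is also part of centrosomes elsewhere, shows how uneven the libraries were: it stood at 205, 2.86, 20.2, 16.6 and 306 CPM against 21.3 to 22.6 CPM in brain, so that on plain CPM it was above brain in sheep 687 and 699 alone. Its call (log2 fold change 3.05, SE 0.92, adjusted p = 0.012) was lost with the block (1.70, adjusted p = 0.12) and on plain totals. ODF2 was not called without 687 (2.60) or 699 (2.24). Without 687, FSIP1 was at 4.40 on the log2 scale. Without 699, ODF1 was at 10.43 on the log2 scale.

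Acrosome and egg-binding genes were mostly called higher. Of 15 tested, 9 were higher, 1 lower and 5 neither (median 4.25), with the same counts without 688 (median 4.39). The sum was 988, 14.9, 126, 140.4 and 819 CPM against 32.3 to 38.8 CPM in brain, again with 688 below brain on plain CPM. SPACA9 stood at 586, 2.65, 33.6, 26.5 and 418 CPM (log2 fold change 5.01, SE 1.12, adjusted p = 0.0022; brain 10.3 to 12.8 CPM). IZUMO4 stood at 239, 2.75, 30.1, 27.3 and 206 CPM (log2 fold change 4.12, SE 0.88, adjusted p = 0.0016; brain 9.04 to 11.1 CPM). CRISP2, a cysteine-rich secretory protein of the acrosome and tail, stood at 32.4, 4.96, 22.2, 31.1 and 74.2 CPM and did not overlap brain, at 0.118 to 0.760 CPM (log2 fold change 7.49, SE 0.79, adjusted p = 1.5e-05). ACRBP, which holds the enzyme precursor proacrosin, stood at 38.8, 0.708, 15.5, 12.2 and 42.0 CPM against 1.42 to 2.77 CPM (log2 fold change 4.25, SE 0.75, adjusted p = 4.9e-04). The gene called lower was TMEM81, a membrane protein of the sperm complex that meets the egg: it had 9 counts over all sperm libraries, at 0, 0.131, 0, 0 and 0.348 CPM, against 1.32 to 2.05 CPM in brain (log2 fold change -2.92, SE 0.82, adjusted p = 0.0085). TMEM95, another sperm membrane protein of egg fusion, had no count in any sperm or brain column, which does not show that it is absent. Without 687, SPACA9 and IZUMO4 were at 4.11 and 3.48 on the log2 scale.

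Axoneme genes, which build the moving core of cilia and flagella, were called higher in 9 of 19 cases and lower in none (median 1.36). The count was 11 of 19 without 688 and 5 of 19 with the block, and plain totals gave 7 higher and 1 lower. These genes were well measured in brain as well, at a sum of 52.8 to 75.1 CPM, against 156, 11.6, 47.3, 85.1 and 204 CPM in sperm. With 688 included, for none of the 19 did all sperm libraries lie above all brain columns. TEKT1, a tektin of the doublet microtubules, stood at 30.3, 3.49, 2.48, 1.20 and 50.8 CPM against 2.11 to 4.70 CPM (log2 fold change 2.99, SE 0.85, adjusted p = 0.0091), a call lost with the block (2.07, adjusted p = 0.061). CFAP44 stood at 19.5, 0.865, 8.68, 16.2 and 28.5 CPM against 1.29 to 3.62 CPM (log2 fold change 3.15, SE 0.64, adjusted p = 0.0012). The dynein heavy chain DNAH17 was above brain in all 5 sheep, at 7.35, 3.75, 7.75, 26.1 and 10.6 CPM against 2.91 to 3.95 CPM (log2 fold change 2.64, SE 0.45, adjusted p = 3.7e-04), and was highest in 694. SPAG16, of the central pair, stood at 9.94, 0.498, 2.79, 9.31 and 25.8 CPM against 1.02 to 1.87 CPM (log2 fold change 3.48, SE 0.71, adjusted p = 0.0013). With 688 set aside, the remaining sperm libraries did lie above all brain columns for CFAP44, DNAH17 and SPAG16, though not for TEKT1. The rest of the list was not counted in this way. TEKT1 was not called without 699 (2.22). Without 699, SPAG16 was at 2.74 on the log2 scale.

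Ion channel genes of sperm were called higher in 8 of 15 cases and lower in none (median 2.38). Without 688 this was 10 of 15 (median 2.63), with the block 5 of 15, and on plain totals 7 higher and 1 lower. CatSper is the calcium channel of the tail, and its subunit CATSPERG stood at 87.9, 2.73, 16.7, 21.4 and 122 CPM against 1.99 to 2.99 CPM in brain (log2 fold change 5.06, SE 0.78, adjusted p = 1.9e-04). CATSPERZ stood at 55.7, 0.393, 6.98, 2.39 and 54.4 CPM against 2.56 to 3.26 CPM (log2 fold change 3.76, SE 0.99, adjusted p = 0.0060), and its call was lost with the block (2.48, adjusted p = 0.058). KCNU1, the potassium channel of sperm, stood at 22.8, 0.210, 2.48, 12.6 and 6.87 CPM and did not overlap brain, at 0.0116 to 0.0311 CPM (log2 fold change 9.65, SE 1.13, adjusted p = 3.0e-05). CATSPER4, a pore subunit, departed from the usual order of the libraries: it stood at 3.83, 5.90, 5.89, 3.42 and 11.9 CPM, so that 688 was not low, against 0.0986 to 0.155 CPM in brain (log2 fold change 6.66, SE 0.56, adjusted p = 4.8e-06; 6.38 without 688). Without 687, CATSPERZ was at 3.12 on the log2 scale.

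Genes of energy metabolism split by isoform. Sperm use versions of several enzymes that other cells lack, some bound to the tail sheath. The germ cell list drawn up for them also held HK3, which white blood cells use too; of its 6 genes tested, 5 were called higher, HK3 among them, and none lower (median 5.66, 5.65 without 688). Of 15 genes for the isoforms of other tissues, 2 were called higher and 9 lower (median -2.92; 2 and 10 without 688, median -3.78). The germ cell list summed to 232, 16.6, 94.4, 159 and 259 CPM in sperm and 8.83 to 12.1 CPM in brain, and the somatic list to 317, 1214, 663, 787 and 884 CPM in sperm and 5177 to 6921 CPM in brain. GAPDHS, the glyceraldehyde-3-phosphate dehydrogenase of the sheath, stood at 59.2, 0.655, 15.3, 9.57 and 79.9 CPM against 3.16 to 4.15 CPM (log2 fold change 3.95, SE 0.86, adjusted p = 0.0019), while its somatic counterpart GAPDH stood at 23.5, 390.1, 235, 148 and 269 CPM against 1080 to 1395 CPM in brain. GAPDH was below brain in all 5 sheep, though its log2 fold change of -1.35 (SE 0.65) was not called (adjusted p = 0.089) with all 5 libraries and was called without 688 (-2.07, adjusted p = 0.015), with the block (-1.85, adjusted p = 0.044) and with plain totals. PDHA2, the testis form of the pyruvate dehydrogenase alpha subunit, stood at 12.8, 0.236, 0.620, 7.78 and 5.39 CPM with 1 count in brain (fitted log2 fold change 13.41), and PDHA1, the common form, at 0, 0.262, 0, 0.256 and 0 CPM against 9.55 to 12.4 CPM (log2 fold change -5.22, SE 0.84, adjusted p = 2.5e-04). PGK2, the testis phosphoglycerate kinase, had 483 counts in sperm, at 5.69, 4.33, 7.91, 0 and 18.4 CPM, and 1 in brain, a ratio of 16426 (95% counting interval 2934 to 650130); it was not among the genes tested. PGK1 stood at 0, 24.2, 9.46, 21.7 and 8.52 CPM against 179 to 257 CPM (log2 fold change -2.92, SE 0.95, adjusted p = 0.018). PGK1 was not called without 690 (-2.88), 694 (-3.04) or 699 (-2.66). Without 687, PDHA2 was at 12.58 on the log2 scale. Without 688, PDHA1 and PGK1 were at -6.66 and -3.78 on the log2 scale. Without 690, PDHA2 was at 14.53 on the log2 scale.

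SMCP, of the capsule of sperm mitochondria, stood at 45.6, 0.655, 23.9, 15.0 and 100.1 CPM against 0 to 0.00966 CPM (log2 fold change 14.48, SE 1.58, adjusted p = 2.0e-05). ACSBG2, an acyl-CoA synthetase of the testis, stood at 89.5, 1.49, 38.8, 20.3 and 49.6 CPM against 1.11 to 1.85 CPM (log2 fold change 5.71, SE 0.81, adjusted p = 1.1e-04). HK3, a hexokinase, stood at 16.8, 9.20, 5.74, 104 and 2.87 CPM and peaked in 694, where the neutrophil receptor CXCR2 also peaked (log2 fold change 5.60, SE 0.92, adjusted p = 3.0e-04); the part of white cells in its level was not tested. Among somatic isoforms the 2 genes called higher were HK2 and ENO3. HK2, a hexokinase, stood at 33.0, 66.0, 52.9, 45.1 and 55.1 CPM against 0.321 to 0.543 CPM (log2 fold change 8.01, SE 0.51, adjusted p = 1.5e-06). ENO3, the muscle enolase, stood at 36.3, 0.446, 2.33, 3.25 and 35.5 CPM against 0.462 to 0.586 CPM (log2 fold change 5.65, SE 1.02, adjusted p = 5.6e-04). HK2 was above brain in every sheep, whereas ENO3, as the germ cell transcripts were, was high in 687 and 699. ENO1, the common enolase, stood at 37.2, 107, 61.5, 85.5 and 76.1 CPM against 349 to 423 CPM (log2 fold change -1.30, SE 0.41, adjusted p = 0.015). The log2 fold changes of HK1 (-0.86, adjusted p = 0.14) and ALDOA (0.27, adjusted p = 0.68) were not called. ENO1 was not called without 690 (-1.27) or 699 (-1.14). Without 687, ENO3 was at 4.97 on the log2 scale. Without 694, HK3 was at 4.19 on the log2 scale. Without 699, SMCP was at 13.49 on the log2 scale. Without the 688 pair, SMCP was at 16.35.

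**Figure D2:**
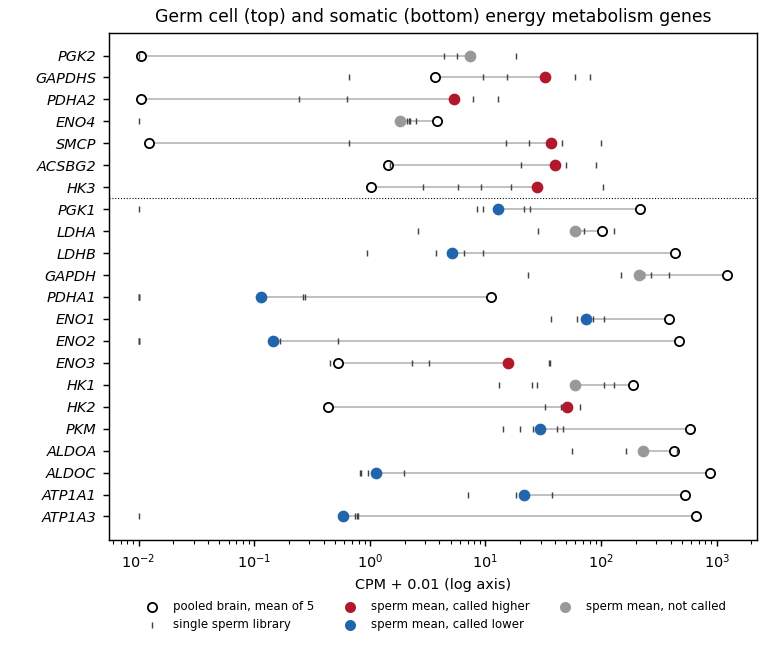
Levels of the energy metabolism genes, germ cell isoforms above the dotted line and somatic isoforms below it, as CPM + 0.01 on a log axis; open circles are the mean of 5 pooled brain columns, filled circles the mean of 5 sperm libraries coloured by call, and ticks the single sperm libraries. PGK2 was not tested and is drawn as not called. Of the germ cell isoforms tested 5 of 6 lie to the right of brain and are called higher, and of the somatic isoforms 9 of 15 are called lower.

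Kinases of the testis were mostly higher in sperm. Of 13 kinases and phosphatase partners tested, 7 were called higher and 3 lower (median 2.07, the same counts without 688); the block left 4 higher and 2 lower, and plain totals 5 and 5. TSSK6, a kinase of elongating spermatids, stood at 1367, 11.1, 102, 108 and 963 CPM against 1.06 to 1.77 CPM (log2 fold change 9.15, SE 1.22, adjusted p = 7.1e-05). TSSK2 stood at 126, 2.20, 31.0, 23.0 and 90.3 CPM against 0.532 to 0.872 CPM (log2 fold change 7.07, SE 0.87, adjusted p = 4.3e-05). TSSK3 stood at 89.4, 2.91, 15.0, 19.8 and 76.3 CPM against 2.03 to 2.39 CPM (log2 fold change 4.98, SE 0.73, adjusted p = 1.3e-04). Their substrate TSKS stood at 73.2, 0.524, 4.19, 10.7 and 34.5 CPM against 1.37 to 2.70 CPM (log2 fold change 4.34, SE 0.95, adjusted p = 0.0019). The 3 genes called lower also have roles outside the testis: CAMK4, a calcium/calmodulin kinase of neurons and spermatids, stood at 4.76, 0.419, 1.40, 2.22 and 6.26 CPM against 26.0 to 31.0 CPM (log2 fold change -2.48, SE 0.51, adjusted p = 0.0013). The phosphatase inhibitor PPP1R2 (log2 fold change -1.33, SE 0.52, adjusted p = 0.042) and the calcineurin subunit PPP3CC (log2 fold change -1.27, SE 0.32, adjusted p = 0.0042) were also below brain in all 5 sheep, and the call of PPP3CC was lost with the block (-1.30, adjusted p = 0.0505). PPP1R2 was not called without 687 (-1.10), 690 (-1.11), 694 (-1.41) or 699 (-1.23). Without 687, TSSK6, TSSK2 and TSKS were at 8.31, 6.38 and 3.14 on the log2 scale. Without 688, PPP1R2 was at -2.01 on the log2 scale.

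Genes of the sperm head cytoskeleton had a median log2 fold change of 10.30, with 10 of 12 called higher and none lower (9.99, and 11 of 13, without 688). CAPZA3, the testis subunit of an actin-capping protein, stood at 124, 1.57, 6.98, 44.1 and 57.8 CPM against 0.00176 to 0.00773 CPM (log2 fold change 13.96, SE 1.32, adjusted p = 8.2e-06). CYLC2, a basic protein around the acrosome, stood at 41.5, 0.655, 10.5, 28.1 and 50.4 CPM against 0.00193 to 0.0211 CPM (log2 fold change 12.11, SE 1.27, adjusted p = 1.5e-05), and CCIN (calicin) at 18.8, 4.30, 5.74, 32.7 and 8.52 CPM against 0.277 to 0.394 CPM (log2 fold change 6.13, SE 0.58, adjusted p = 8.5e-06). CAPZB, the capping subunit shared by most cells, was not called (log2 fold change 0.84, SE 0.45, adjusted p = 0.12). A further list of transcripts known from haploid germ cells had 14 of 15 genes higher and none lower (median 4.95; 14 of 15 without 688, median 4.68). CMTM2 stood at 1292, 26.5, 254, 303 and 1095 CPM against 0.945 to 1.38 CPM (log2 fold change 9.90, SE 0.97, adjusted p = 1.0e-05). SPATA3 stood at 164, 1.36, 11.9, 11.2 and 211 CPM against 1.10 to 1.23 CPM (log2 fold change 6.84, SE 1.16, adjusted p = 3.7e-04). LELP1 stood at 178, 2.39, 32.4, 24.7 and 323 CPM and had 1 count in brain, a ratio of 204900 (95% counting interval 36762 to 8094500) and of 397600 without 688. CREM, a transcription factor that drives spermatid genes and is also active in other tissues, stood at 172, 174, 67.7, 258 and 156 CPM against 8.55 to 11.0 CPM (log2 fold change 5.12, SE 0.41, adjusted p = 4.0e-06): it was above brain in every sheep and was not low in 688. Without 687, CAPZA3 was at 12.93 on the log2 scale. Without 699, CYLC2 and SPATA3 were at 11.45 and 6.08 on the log2 scale.

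Taking the 9 sperm lists as 1 set of 122 genes, 116 were tested, 80 were called higher and 4 lower, with a median of 3.68 (85 and 4 of 117 without 688, median 3.90). The set summed to 12494, 711, 2532, 2556 and 11831 CPM in sperm and 552 to 606 CPM in brain. Of its genes with 1 CPM or more there were 105, 41, 89, 97 and 108 in the sperm libraries and 54 to 63 in the brain columns. The highest sperm library was 699 for 61 genes, 687 for 40, 694 for 16, 688 for 3 and 690 for 1, and 688 was lowest, ties included, for 92. By this sum 687 and 699 were far above 694 and 690, which were close to each other, and 688 was lowest. The 687 and 699 libraries also had the largest shares of the 4 placeholder entries and the smallest mitochondrial shares; with the 4 entries kept in the totals the same sum was 1853, 551, 1192, 1012 and 2869 CPM, now highest in 699, above 687, and again lowest in 688. The part of these shares in the levels was not tested.

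**Figure D3:**
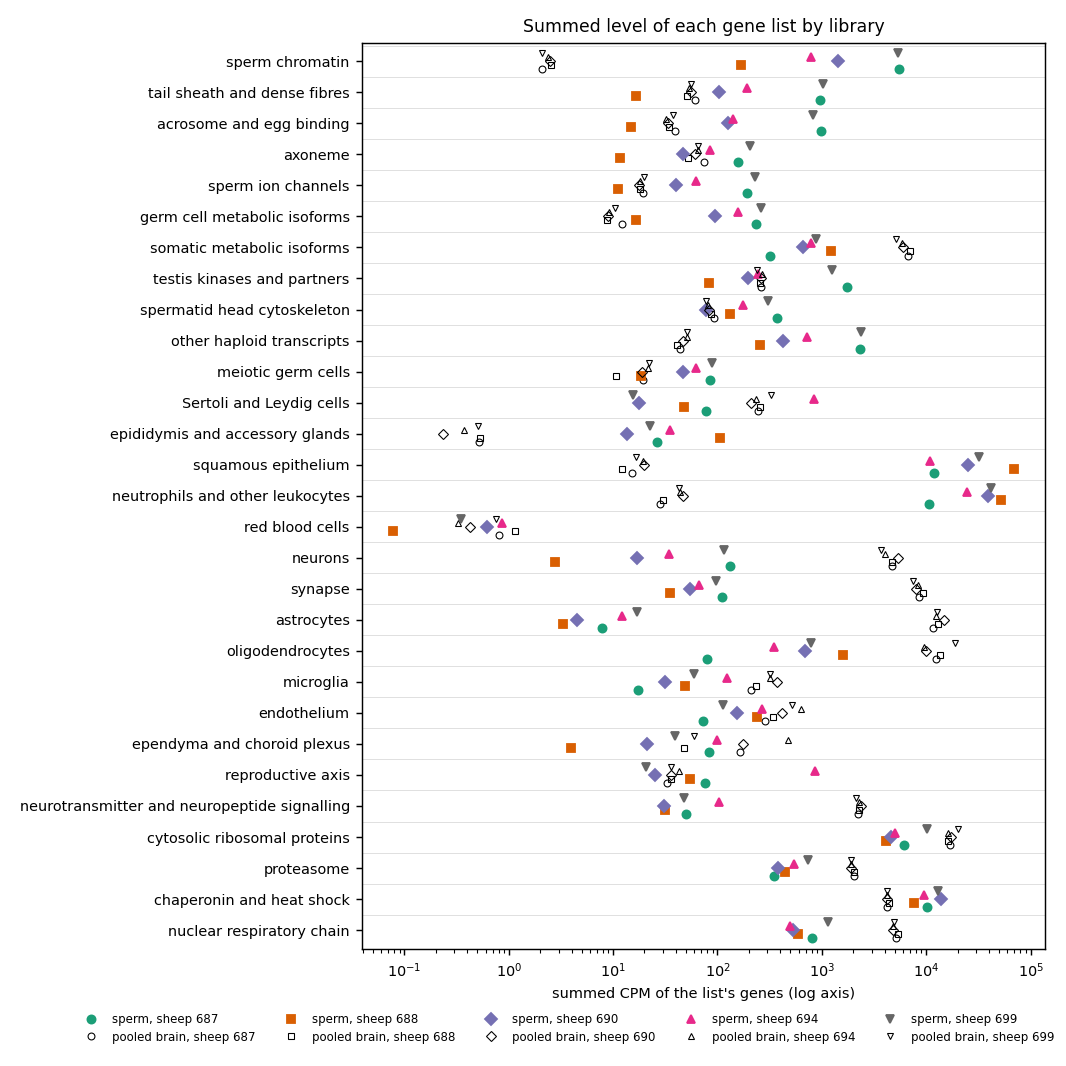
Summed CPM of each gene list (log axis) in the 5 sperm libraries (filled symbols) and the 5 pooled brain columns (open symbols), 1 row for each list and 1 symbol shape for each sheep; red blood cell genes had no count in the 687 sperm library, which is not drawn there. The sperm lists are highest in the 687 and 699 libraries, and the squamous epithelium list is highest in 688. The brain columns lie close together in most rows, but run from 47.7 to 470 CPM for ependyma and choroid plexus.

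Markers of other cells that semen can hold were examined in the same way. Meiotic germ cell genes, of the stages before the haploid phase, were called higher in 9 of 13 cases and lower in 1 (median 4.15; 10 and 1 of 14 without 688), at sums of 84.3, 18.5, 47.1, 62.3 and 89.5 CPM against 10.6 to 22.1 CPM in brain. HORMAD1, of the meiotic chromosome axis, stood at 12.2, 13.7, 20.9, 18.1 and 16.2 CPM against 1.63 to 3.12 CPM (log2 fold change 3.81, SE 0.40, adjusted p = 1.6e-05) and was of a like level in all 5 sperm libraries. SYCP1, of the synaptonemal complex, stood at 20.2, 0.131, 2.33, 4.53 and 20.8 CPM against 0.0370 to 0.0928 CPM (log2 fold change 7.86, SE 1.12, adjusted p = 1.1e-04). SYCP2 stood at 21.4, 0.551, 3.10, 6.32 and 12.5 CPM (log2 fold change 2.91, SE 0.68, adjusted p = 0.0030). MAEL, of the piRNA pathway, stood at 10.1, 0.157, 2.48, 6.58 and 21.7 CPM (log2 fold change 7.31, SE 1.09, adjusted p = 1.5e-04). TEX11, a meiotic crossover factor, was the member called lower, at 0, 0.0787, 0, 0.256 and 0.522 CPM against 2.17 to 11.2 CPM in brain (log2 fold change -4.66, SE 0.82, adjusted p = 4.6e-04). Of 11 Sertoli and Leydig cell genes tested, 2 were higher and 5 lower, with and without 688, and 3 of the 13 listed (AMH, GATA4 and HSD3B1) had no count in sperm. SOX9, a Sertoli cell factor that astrocytes also express, stood at 0.725, 0.105, 2.48, 3.50 and 1.22 CPM against 72.5 to 78.6 CPM (log2 fold change -4.69, SE 0.70, adjusted p = 1.6e-04), and STAR, of steroid synthesis, was not called (log2 fold change 0.81, SE 0.58, adjusted p = 0.24). The 2 called higher were CYP11A1 and INHBA. CYP11A1, the first enzyme of steroid synthesis, stood at 3.31, 0.315, 0, 0.0854 and 1.91 CPM (log2 fold change 5.69, SE 1.09, adjusted p = 8.4e-04). INHBA stood at 70.8, 44.9, 12.1, 840.3 and 10.1 CPM. INHBA encodes an activin and inhibin subunit. On plain CPM its level in 694 was far above the other 4 libraries, and those of 690 and 699 were below the brain columns, at 12.7 to 15.4 CPM. Its log2 fold change, with TMM factors, was 4.58 (adjusted p = 0.0038), or 4.48 without 688. Without 687, SYCP2 and CYP11A1 were at 2.27 and 4.90 on the log2 scale. Without 694, MAEL and INHBA were at 8.06 and 2.42 on the log2 scale. Without 699, MAEL was at 6.43 on the log2 scale.

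Squamous epithelium and white blood cell transcripts had the largest summed levels of these groups in sperm. Of 19 squamous epithelium genes tested, 18 were called higher and none lower (median 11.12; 17 without 688, median 10.85), and 15 of 19 did not overlap brain. They summed to 12000, 68884, 25359, 10890 and 32110 CPM in sperm and 12.2 to 20.0 CPM in brain, highest in 688 and lowest in 694. KRT13, a keratin of moist lining epithelia, stood at 4775, 23057, 8539, 2682 and 12444 CPM against 0.0947 to 0.680 CPM (log2 fold change 16.26, SE 1.40, adjusted p = 5.2e-06). MUC21, a membrane mucin of such epithelia, stood at 1191, 21099, 6639, 3402 and 5744 CPM against 0 to 0.00583 CPM (log2 fold change 22.24, SE 1.55, adjusted p = 2.1e-06). KRT78 stood at 539.9, 9794, 3902, 1242 and 3342 CPM (log2 fold change 16.05, SE 1.67, adjusted p = 1.5e-05). SPINK5, a protease inhibitor of the cornified layer, stood at 3166, 1704, 1291, 1272 and 3980 CPM (log2 fold change 11.08, SE 0.64, adjusted p = 9.0e-07). KRT13, MUC21 and KRT78 peaked in 688, whereas SPINK5 peaked in 699. None of the 19 was without counts in sperm. The 688 library had the highest squamous sum and the lowest sum of the sperm lists, and the part of epithelial RNA in the germ cell levels was not tested. Without 688, KRT13, MUC21 and KRT78 were at 15.27, 20.92 and 14.86 on the log2 scale. Without 694, KRT13 was at 17.03 on the log2 scale.

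White blood cell genes were called higher in 10 of 14 cases and lower in none, with and without 688 (medians 4.44 and 4.25), and none of the 14 was without counts in sperm. Their sum, 10714, 51523, 39142, 24373 and 42073 CPM against 28.4 to 46.7 CPM in brain, was mostly S100A8 and S100A9, which neutrophils and squamous epithelium share. S100A9 stood at 7277, 34020, 28229, 15829 and 29536 CPM against 0.0522 to 0.102 CPM in brain (log2 fold change 19.13, SE 1.21, adjusted p = 1.4e-06). S100A8 stood at 3239, 17089, 10674, 4225 and 12413 CPM against 0.0116 to 0.0928 CPM (log2 fold change 18.90, SE 1.37, adjusted p = 2.7e-06), both highest in 688. The other 12 genes summed to 198, 415, 239.8, 4319 and 125 CPM in sperm and 28.3 to 46.7 CPM in brain, highest in 694. CXCR2, the chemokine receptor that draws neutrophils, stood at 116, 247, 161, 2502 and 20.0 CPM against 0.0855 to 0.178 CPM (log2 fold change 13.04, SE 1.53, adjusted p = 3.0e-05). CSF3R, the receptor for granulocyte colony-stimulating factor, stood at 21.8, 106, 63.3, 1361 and 11.8 CPM against 0.232 to 0.356 CPM (log2 fold change 10.93, SE 1.53, adjusted p = 9.9e-05). PTPRC (CD45), carried by all white cells, stood at 39.9, 13.0, 6.05, 111 and 37.4 CPM against 9.59 to 16.3 CPM (log2 fold change 2.46, SE 0.58, adjusted p = 0.0029). All 3 receptors were highest in 694. Without 688, S100A8 was at 18.20 on the log2 scale. Without 694, CXCR2, CSF3R and PTPRC were at 11.47, 8.92 and 1.82 on the log2 scale.

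Epididymis and accessory gland genes were all called higher among the 6 tested of 12, with and without 688 (median 10.65, or 9.83 with BSP5 at its bound), at sums of 26.1, 106, 13.6, 34.9 and 22.4 CPM against 0.234 to 0.529 CPM in brain. BSP1, BSP5 and RNASE9, with at most 2 counts in brain, could pass the low-count filter only by their sperm counts. The count of 6 of 6 was therefore partly set by that filter. In DESeq2, run without it, 10 of 12 were called higher and 2 neither. BSP1, a binder of sperm proteins secreted by the seminal vesicles, stood at 3.11, 37.1, 0.310, 18.4 and 3.91 CPM with 1 count in brain, a ratio of 58053 (95% counting interval 10405 to 2294300). Most of its sperm counts came from 688: without that library the ratio was 19565 (95% counting interval 3484 to 775380), and the fitted log2 fold change went from 15.14 to 13.46. BSP5, of the same family, stood at 4.14, 7.66, 0.930, 2.22 and 2.70 CPM with no count in brain, at least 3098-fold higher by the floor of 3 counts over the group and at least 2192-fold higher without 688. RNASE9, of the epididymis, stood at 9.32, 3.78, 4.65, 3.93 and 8.26 CPM with 2 counts in brain (fitted log2 fold change 13.23). ADAM28 was higher in 688 than elsewhere, at 0.311, 54.7, 3.26, 1.45 and 0.435 CPM against 0.0425 to 0.319 CPM, and its log2 fold change was 7.90 with and 4.09 without 688. Red blood cell genes were near 0 in every column: HBM had no count in sperm, and HBB, a haemoglobin chain, had 4 in all sperm libraries. ALAS2, of haem synthesis, had 5 and was not tested. SLC4A1, at 0, 0.0787, 0.620, 0.427 and 0 CPM, was the 1 gene of 3 called higher (log2 fold change 2.76, SE 0.86, adjusted p = 0.014), a call lost with the block (2.08, adjusted p = 0.27). SLC4A1 was not called without 690 (1.91) or 694 (2.32). Without 694, RNASE9 was at 14.72 on the log2 scale. Without 699, BSP1 was at 16.48 on the log2 scale.

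The brain lists ran the other way. Of 77 genes in 7 lists, all tested, 66 were called lower in sperm and 4 higher, with a median of -6.58 (66 and 4 without 688, median -6.70). They summed to 505, 1927, 971, 951 and 1226 CPM in sperm and 35594 to 43732 CPM in brain. Neuron genes were called lower in 11 of 12 cases, with and without 688 (medians -7.49 and -7.40), and all 12 stood below brain in every sheep. The microtubule protein MAP2 stood at 21.2, 0.577, 5.43, 3.67 and 10.5 CPM against 1000 to 1248 CPM (log2 fold change -6.21, SE 0.78, adjusted p = 4.7e-05). NEFL, a neurofilament chain, stood at 0.104, 0.0787, 0, 0.854 and 0 CPM against 356 to 682 CPM (log2 fold change -10.41, SE 0.96, adjusted p = 7.3e-06), NEFM at 7.25, 0.498, 2.33, 2.22 and 4.00 CPM (log2 fold change -6.29, SE 0.70, adjusted p = 2.1e-05) and MAPT (tau) at 1.45, 0.210, 0.155, 1.28 and 2.00 CPM (log2 fold change -8.00, SE 0.62, adjusted p = 3.1e-06). The gene not called was RBFOX3, which encodes the neuronal nuclear antigen NeuN: it stood at 76.7, 0.708, 2.79, 11.8 and 88.4 CPM in sperm, high in 687 and 699 as the germ cell transcripts were, against 121 to 159 CPM in brain (log2 fold change -1.23, SE 0.89, adjusted p = 0.24; -2.55, adjusted p = 0.036 with the block, which called it lower). Without 687, MAP2 was at -6.95 on the log2 scale. Without 694, NEFL was at -12.05 on the log2 scale.

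All 18 synapse genes were called lower, with and without 688 (medians -6.76 and -7.04), at 110.2, 34.9, 54.6, 66.6 and 97.7 CPM in sum against 7550 to 9264 CPM in brain. CAMK2A, the kinase of excitatory synapses, stood at 0, 2.49, 6.20, 1.71 and 2.35 CPM against 1556 to 1976 CPM (log2 fold change -8.34, SE 1.07, adjusted p = 5.6e-05). SNAP25, of the vesicle fusion complex, stood at 0, 0.0524, 0.310, 1.62 and 1.13 CPM against 978 to 1549 CPM (log2 fold change -10.21, SE 1.02, adjusted p = 1.1e-05), and NRGN and SYT1 had log2 fold changes of -8.74 and -9.62. All 10 astrocyte genes were called lower (median -10.38, or -10.24 with ALDH1L1 at its bound), also without 688 (median -10.20). Among them, GFAP, the astrocyte filament protein, stood at 0, 0.0524, 0, 0 and 1.30 CPM against 3602 to 4532 CPM (log2 fold change -13.10, SE 1.30, adjusted p = 1.1e-05). The glutamate transporter SLC1A2 stood at 0, 0.236, 0, 1.54 and 1.91 CPM (log2 fold change -10.69, SE 1.10, adjusted p = 1.4e-05), and ALDH1L1, an enzyme that marks astrocytes, had no count in sperm. Of 12 oligodendrocyte genes 11 were called lower (median -8.55, or -8.51 with OLIG1 and OLIG2 at their bounds), also without 688 (median -8.52). MBP (myelin basic protein) stood at 5.28, 12.8, 6.51, 30.2 and 5.91 CPM against 4699 to 9313 CPM (log2 fold change -8.05, SE 0.75, adjusted p = 7.8e-06). MOBP stood at 1.14, 0.157, 2.33, 5.38 and 0.435 CPM (log2 fold change -8.62), and OLIG1 and OLIG2, the lineage factors, had no count in sperm. CNP stood at 1.24, 57.3, 7.44, 22.0 and 14.2 CPM, highest in 688, with a log2 fold change of -2.98 and -4.50 without 688. The member called higher was MAL, a membrane protein of myelin that epithelia also make, at 72.4, 1524, 671, 283 and 761 CPM against 57.8 to 93.9 CPM (log2 fold change 4.51, SE 0.83, adjusted p = 6.2e-04), highest in 688 as the squamous list was. CNP was not called without 699 (-2.42). Without 688, MAL was at 3.51 on the log2 scale. Without 690, CAMK2A was at -9.05 on the log2 scale. Without 694, SNAP25, SYT1 and MOBP were at -10.97, -13.08 and -9.49 on the log2 scale. Without 699, GFAP and SLC1A2 were at -15.85 and -11.34 on the log2 scale.

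Microglia genes were called lower in 7 of 10 cases and higher in 1 (median -3.03), with the same counts and a median of -3.67 without 688. On plain totals 8 were lower and none higher. CX3CR1, a microglial chemokine receptor whose sperm counts all came from 694, stood at 0, 0, 0, 1.20 and 0 CPM against 26.8 to 54.2 CPM (log2 fold change -6.58, SE 1.14, adjusted p = 4.3e-04). Without 694 the fit gave -16.29, a value that rests on no sperm count and depends on the prior count. P2RY12 stood at 0, 1.21, 1.09, 8.54 and 0 CPM (log2 fold change -3.58, SE 1.09, adjusted p = 0.013). TMEM119 stood at 0.518, 1.10, 1.09, 7.18 and 1.57 CPM (log2 fold change -2.62, SE 0.60, adjusted p = 0.0027). CSF1R, the growth factor receptor of macrophages, stood at 0.518, 5.01, 2.95, 67.8 and 2.26 CPM, highest in 694, against 66.6 to 126 CPM and was not called (log2 fold change -1.76, SE 0.98, adjusted p = 0.13), though the block called it lower (-3.54, adjusted p = 0.0049). Of 8 endothelium genes 6 were lower and none higher (3 and 1 under upper quartile factors), among them VWF (log2 fold change -2.77, SE 0.96, adjusted p = 0.024), FLT1 (log2 fold change -1.74, SE 0.47, adjusted p = 0.0072) and KDR (log2 fold change -2.55, SE 0.66, adjusted p = 0.0054), while SLC2A1, the glucose transporter of the blood-brain barrier and of epithelia, was not called (log2 fold change 0.34, SE 0.54, adjusted p = 0.59). The endothelium counts were the same without 688, with a median of -3.32 against -2.66 with all sperm libraries. Ependyma and choroid plexus genes, which include cilium genes, were mixed, with 3 of 7 lower and 2 higher (median 0.14), and the same counts without 688 (median 0.32). TTR, of the choroid plexus, stood at 0, 0.0262, 0.310, 2.82 and 0.522 CPM against 34.7 to 439 CPM (log2 fold change -6.96, SE 1.27, adjusted p = 5.9e-04). FOXJ1, the master factor of motile cilia, whose sperm counts all came from 687, stood at 1.66, 0, 0, 0 and 0 CPM against 2.59 to 8.41 CPM (log2 fold change -3.42, SE 1.25, adjusted p = 0.031). Without 687 no sperm count of FOXJ1 was left, and the fit gave -13.54. AK7, an adenylate kinase of cilia and flagella, was called higher (log2 fold change 2.37, SE 0.52, adjusted p = 0.0019), as was CLIC6 at 33.0, 0.629, 6.67, 82.5 and 0.435 CPM (log2 fold change 5.92, SE 1.33, adjusted p = 0.0023), and CCDC153 was not called (log2 fold change 1.06, SE 0.69, adjusted p = 0.20). P2RY12 was not called without 690 (-3.39). VWF was not called without 690 (-2.94), 694 (-2.24) or 699 (-2.61). FLT1 was not called without 699 (-1.56). FOXJ1 was not called without the 688 pair (-3.23), 690 (-3.15), 694 (-2.97) or 699 (-3.25). Without 688, VWF and KDR were at -3.43 and -3.21 on the log2 scale. Without 694, P2RY12, TMEM119, TTR and CLIC6 were at -4.94, -3.45, -8.00 and 5.28 on the log2 scale.

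**Figure D4:**
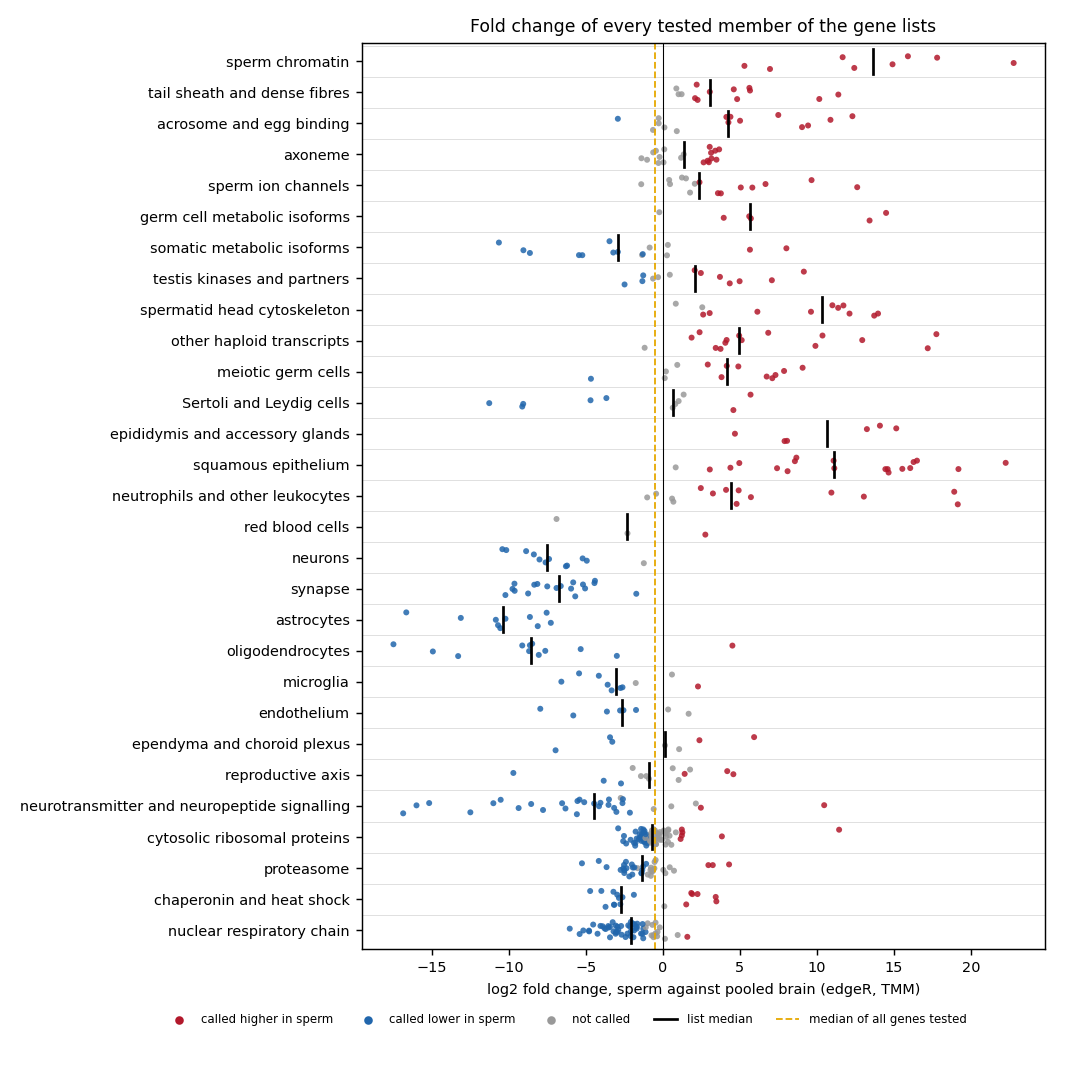
Log2 fold change of sperm against pooled brain for every tested gene of the lists, 1 point a gene, red for genes called higher in sperm, blue for genes called lower and grey for the rest; the vertical jitter has no meaning, black bars are list medians and the dashed line is the median of all genes tested, -0.51. The value drawn for a gene with no count in one group, such as PRM1, depends on the prior count. The medians of the sperm lists lie to the right and those of the brain lists to the left, apart from ependyma and choroid plexus (median 0.14). Those of ribosomal and proteasome genes lie near the dashed line.

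Since the series asks about genes that link brain and reproduction, receptors and messengers of the nervous system that have been described in sperm were listed too. Of 31 such genes, 25 were called lower in sperm and 2 higher (median -4.46, or -4.14 with the 7 genes that had no count in sperm at their bound; 25 and 2 without 688). They summed to 49.7, 31.3, 30.7, 103 and 47.9 CPM in sperm and 2134 to 2363 CPM in brain. NTRK2, the receptor for brain-derived neurotrophic factor, stood at 3.52, 0.551, 3.26, 13.8 and 2.26 CPM against 699 to 943 CPM (log2 fold change -6.53, SE 0.74, adjusted p = 2.5e-05). The GABA-B receptor subunit GABBR1 stood at 5.69, 0.891, 4.03, 4.36 and 5.48 CPM against 551 to 681 CPM (log2 fold change -6.31, SE 0.47, adjusted p = 3.0e-06) and its partner GABBR2 at 6.62, 1.13, 0.620, 1.62 and 0.435 CPM (log2 fold change -5.10, SE 0.71, adjusted p = 9.6e-05). GRIN2B, of the NMDA glutamate receptor, stood at 0, 0.393, 2.48, 9.57 and 0.522 CPM against 174 to 223 CPM (log2 fold change -5.40, SE 1.07, adjusted p = 0.0010), highest in 694. Genes with no count in sperm included OPRK1, DRD1, SLC6A3, GABRA5 and HTR3A. Without 687, GABBR2 was at -6.04 on the log2 scale. Without 694, NTRK2 and GRIN2B were at -7.36 and -6.78 on the log2 scale.

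The cannabinoid receptors differed in direction. CNR2, the receptor of immune cells, stood at 23.1, 9.67, 3.88, 49.9 and 16.1 CPM against 0.0193 to 0.0405 CPM (log2 fold change 10.46, SE 0.75, adjusted p = 2.6e-06; 10.30 without 688), with no overlap and its highest level in 694. CNR1, the receptor of neurons, stood at 1.04, 4.43, 1.71, 1.11 and 3.83 CPM against 69.9 to 109.7 CPM (log2 fold change -4.05, SE 0.58, adjusted p = 1.1e-04). TACR2, a tachykinin receptor, was called higher at a low level, 0, 0.236, 0, 1.62 and 1.91 CPM against 0.195 to 0.305 CPM (log2 fold change 2.47, SE 0.91, adjusted p = 0.031), and the block did not call it (1.44, adjusted p = 0.42). Genes of the reproductive axis did not share a direction: of 13 tested, 3 were higher and 3 lower (2 and 4 without 688; median -0.90). KISS1, the kisspeptin precursor, stood at 0, 0.865, 1.40, 0.940 and 1.13 CPM against 0.0546 to 0.190 CPM (log2 fold change 4.18, SE 0.88, adjusted p = 0.0016). Its receptor KISS1R stood at 0, 0.0524, 0, 0.684 and 0 CPM against 1.64 to 2.00 CPM (log2 fold change -2.71, SE 0.93, adjusted p = 0.023). The oestrogen receptor ESR2 stood at 3.31, 7.97, 6.82, 1.54 and 5.74 CPM against 3.94 to 4.61 CPM (log2 fold change 1.42, SE 0.55, adjusted p = 0.039), a call lost without 688 (0.82, adjusted p = 0.18) and with the block (1.05, adjusted p = 0.23), and ESR1 was not called (log2 fold change -1.07, SE 0.80, adjusted p = 0.26). INHBB stood at 0.725, 0, 0.310, 0 and 0 CPM against 4.25 to 5.82 CPM (log2 fold change -3.84, SE 1.08, adjusted p = 0.0085). OXTR, the oxytocin receptor, had no count in sperm and stood at 0.155 to 0.694 CPM in brain, where it was at least 9.99-fold higher by the floor of 3 counts over the sperm libraries. ESR2 was not called without 687 (1.53), the 688 pair (0.95), 690 (1.24) or 699 (1.64). KISS1R was not called without 687 (-2.47), the 688 pair (-2.56) or 690 (-2.50). TACR2 was not called without the 688 pair (2.75), 694 (2.01) or 699 (1.91). Without 687, INHBB was at -5.91 on the log2 scale. Without 688, CNR1 was at -4.86 on the log2 scale. Without 694, KISS1R was at -4.86 on the log2 scale.

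Machinery that every cell uses was also compared. Of 78 cytosolic ribosomal protein genes, 6 were called higher and 30 lower (median -0.72; 6 and 36 without 688), but this list follows the scaling, with 18 higher and 5 lower under upper quartile factors and 2 higher and 59 lower on plain totals. Its sum was 6110, 4135, 4582, 4992 and 10145 CPM in sperm against 16189 to 20267 CPM in brain. RPL10L, a testis copy of a large-subunit protein gene, stood at 9.21, 0.131, 2.33, 3.76 and 20.7 CPM against 0 to 0.00777 CPM (log2 fold change 11.43, SE 1.36, adjusted p = 3.3e-05), and was the 1 gene of the list called higher with the block. RPL3L, a muscle form of a large-subunit protein, stood at 6.52, 0.0787, 0.930, 0 and 5.65 CPM against 0.282 to 0.383 CPM (log2 fold change 3.83, SE 1.12, adjusted p = 0.010; 2.38, adjusted p = 0.19 with the block). The others called higher were RPS24 (1.27), RPL28 (1.15), RPL36 (1.23) and RPLP2 (1.23), and each of these lost its call with the block (adjusted p from 0.063 to 0.14). RPL4 was called lower (log2 fold change -1.27, SE 0.36, adjusted p = 0.0086), and RPS2 (-0.79, adjusted p = 0.12) and RPLP1 (0.55, adjusted p = 0.17) were not called. Reads of such copies can be split between them by the counting. RPS24 was not called without 687 (0.98), 690 (1.32) or 699 (1.07). RPL36 was not called without 687 (0.98), 690 (1.30) or 699 (1.04). RPL3L was not called without 687 (3.08) or 699 (3.32). RPLP2 was not called without 687 (0.81), 690 (1.30) or 699 (1.07). Without 699, RPL10L was at 10.41 on the log2 scale.

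Proteasome genes were lower in 20 of 37 cases and higher in 3 (median -1.33; 24 and 4 of 38 without 688). Upper quartile factors gave 8 lower and 6 higher. PSMD1 (log2 fold change -1.84, SE 0.33, adjusted p = 5.8e-04), PSMC3 (log2 fold change -1.39, SE 0.28, adjusted p = 0.0012) and PSMD2 (log2 fold change -1.08, SE 0.38, adjusted p = 0.025) were lower, while PSMC1 was not called (-0.77, adjusted p = 0.025). The call of PSMD2 was lost with the block (-1.23, adjusted p = 0.0539). The 3 called higher are subunits of special proteasomes. PSMA8, of the germ cell proteasome, stood at 5.18, 0.131, 0.930, 18.1 and 0 CPM against 0.315 to 0.574 CPM (log2 fold change 4.30, SE 1.25, adjusted p = 0.010), and the block did not call it (2.39, adjusted p = 0.18). PSMB8 and PSMB9, of the immunoproteasome, stood at 3.83, 12.7, 7.44, 109 and 26.1 CPM (log2 fold change 3.24, SE 0.75, adjusted p = 0.0027) and 1.66, 8.08, 4.19, 38.0 and 4.87 CPM (log2 fold change 2.96, SE 0.72, adjusted p = 0.0038), both highest in 694 as the white cell receptors were. PSMD2 was not called without 687 (-1.12), the 688 pair (-0.90) or 694 (-0.93). PSMA8 was not called without 694 (2.72). Without 694, PSMB8 and PSMB9 were at 2.13 and 2.06 on the log2 scale.

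Nuclear genes of the respiratory chain were lower in 46 of 60 cases and higher in 1 (median -2.08; 48 and 1 without 688), and upper quartile factors gave 28 lower and 2 higher. ATP synthase subunits ATP5F1A and ATP5F1B had log2 fold changes of -3.43 and -2.68, and NDUFV2, of complex I, stood at 3.31, 3.57, 4.81, 4.96 and 6.70 CPM against 156 to 188 CPM (log2 fold change -4.23, SE 0.33, adjusted p = 3.4e-06). UQCRH was not called with all 5 libraries (-0.73, adjusted p = 0.12) and was called lower without 688 (-1.16, adjusted p = 0.020). ATP5ME, a small ATP synthase subunit, was the 1 called higher (log2 fold change 1.59, SE 0.44, adjusted p = 0.0077). Chaperone genes went both ways, with 6 of 18 higher and 11 lower (5 and 10 without 688; 7 and 9 under upper quartile factors), and the block left 2 higher, HSP90AA1 and HSPA1L. HSP90AA1, the inducible cytosolic chaperone, stood at 8386, 6046, 12289, 8759 and 10602 CPM against 1640 to 1745 CPM with no overlap (log2 fold change 3.47, SE 0.48, adjusted p = 9.2e-05), whereas its constitutive counterpart HSP90AB1 was not called (log2 fold change 0.10, SE 0.33, adjusted p = 0.81). The testis-enriched HSPA1L stood at 39.3, 2.57, 3.72, 11.0 and 52.8 CPM against 2.78 to 4.30 CPM (log2 fold change 3.43, SE 0.69, adjusted p = 0.0011). HSPA4L stood at 332, 6.34, 46.4, 47.5 and 458 CPM (log2 fold change 1.91, SE 0.78, adjusted p = 0.049). The chaperonin subunit CCT6B stood at 8.38, 0.603, 2.17, 3.16 and 8.78 CPM (log2 fold change 1.85, SE 0.56, adjusted p = 0.013). Both HSPA4L and CCT6B were highest in 687 and 699, and neither was called on plain totals or with the block. HSP90B1 (1.52) and HSPA5 (2.25), chaperones of the endoplasmic reticulum, were called higher too, but HSPA5 stood at 135, 1067, 342, 148 and 377 CPM and lost its call without 688 (1.03, adjusted p = 0.055). HSPA8, RPL27 and PSMB6 had no count in any of the 10 columns, brain included. Whether these values reflect expression or the way reads were counted was not tested, so they are not read as absence. HSPA5 was not called without the 688 pair (1.16). CCT6B was not called without 687 (1.51) or 699 (1.53). HSPA4L was not called without 687 (1.46), 690 (2.13), 694 (2.19) or 699 (1.16). Without 688, ATP5F1B was at -3.50 on the log2 scale.

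Beyond the lists, genes were named by rule. Among genes of at least 10 CPM in every sperm library, the 6 called higher whose lowest within-sheep ratio was largest were S100A9, S100A8, MUC21, KRT13, S100A2 and TSPAN1, none of them a germ cell gene. S100A2, a calcium-binding protein of epithelial basal cells, stood at 3419, 5035, 5722, 1966 and 6563 CPM against 0.373 to 0.783 CPM (log2 fold change 14.07, SE 0.84, adjusted p = 1.3e-06). TSPAN1, a tetraspanin of epithelia, stood at 2568, 7886, 4008, 2252 and 5289 CPM against 0.328 to 0.865 CPM (log2 fold change 14.21, SE 0.96, adjusted p = 1.8e-06). Those in favour of brain, chosen in the same way, included GFAP, SLC1A3, S100B, PTGDS and SPARCL1. PTGDS, the prostaglandin D synthase of cerebrospinal fluid, stood at 0, 0, 0.310, 0 and 0.261 CPM against 623 to 852 CPM (log2 fold change -12.20, SE 1.02, adjusted p = 4.7e-06). S100B stood at 0.104, 0.157, 0.620, 1.45 and 1.22 CPM against 1636 to 2153 CPM (log2 fold change -10.54, SE 0.77, adjusted p = 2.7e-06). The astrocyte glutamate transporter SLC1A3 had a log2 fold change of -10.83, and SPARCL1, an astrocyte matrix protein, of -10.51. Without 687, SPARCL1 was at -11.09 on the log2 scale. Without 688, TSPAN1 was at 13.47 on the log2 scale. Without 690, PTGDS was at -12.98 on the log2 scale. Without 699, PTGDS was at -13.01 on the log2 scale.

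Genes with the highest level shared by all 10 columns, apart from mitochondrial, ribosomal and LOC-named genes, included HSP90AA1, GLUL, AIF1L, CALR and PTMA. CALR, a calcium-binding chaperone, stood at 930.3, 1052, 1135, 979 and 2009 CPM against 292 to 332 CPM with no overlap (log2 fold change 2.97, SE 0.38, adjusted p = 5.1e-05). AIF1L, an actin-binding protein, stood at 629, 2007, 1023, 507 and 1617 CPM against 374 to 524 CPM (log2 fold change 2.52, SE 0.55, adjusted p = 0.0019). PTMA, a small nuclear protein, stood at 486, 337, 275, 613 and 1189 CPM against 282 to 377 CPM (log2 fold change 1.76, SE 0.35, adjusted p = 0.0012). GLUL, glutamine synthetase, was not called (log2 fold change 0.77, SE 0.65, adjusted p = 0.31). Without 688, AIF1L was at 1.82 on the log2 scale.

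Of all genes, those with the largest share of sperm counts were 3 further placeholder genes, LOC121818848, LOC114112702 and LOC114112489, the mitochondrial entries KEF53_p11 and KEF53_r01, and S100A9. The 3 placeholders together held 47.2%, 10.1%, 28.6%, 17.4% and 28.6% of the remaining sperm counts and 3.61% to 5.24% of those in brain; leaving them out as well gave 5755 genes higher and 9105 lower. KEF53_r01 was called higher (log2 fold change 2.24, SE 0.69, adjusted p = 0.014), though not with the block (1.81, adjusted p = 0.098). KEF53_p11 stood at 1473, 23465, 65512, 45016 and 5137 CPM against 49496 to 55173 CPM, so that sperm libraries lay on both sides of brain (log2 fold change 0.27, SE 0.93, adjusted p = 0.81). The genes by which the 688 library most exceeded the other 4 were ATP13A5, EIF2A, ADAM28, MMP1, ANGPTL4 and CCN2. ATP13A5 stood at 0, 42.8, 0.155, 0 and 0.435 CPM, and its call (log2 fold change 4.73, SE 1.79, adjusted p = 0.036) was lost without 688 (-2.05, adjusted p = 0.066) and with the block (-0.68, adjusted p = 0.71). EIF2A, a translation factor, stood at 0, 74.2, 2.48, 2.73 and 3.57 CPM against 47.2 to 52.5 CPM and was not called with all 5 libraries (-0.06, adjusted p = 0.97); it was called lower without 688 (-3.79, adjusted p = 0.0018) and with the block (-3.12, adjusted p = 0.036). CCN2, a matrix protein, stood at 0.828, 105, 9.61, 5.64 and 6.61 CPM, ANGPTL4 at 2.38, 39.0, 1.40, 0.171 and 3.22 CPM and MMP1, a collagenase that was not tested, at 0, 23.3, 1.55, 1.03 and 0.261 CPM. ATP13A5 was not called without the 688 pair (-1.77), 690 (4.94), 694 (4.96) or 699 (5.32). KEF53_r01 was not called without 690 (1.74).

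Detection was counted on plain CPM, with no TMM factors. At 1 CPM in every column of a group, 7818 genes were detected in sperm, 15515 in brain and 6866 in both, which is 87.8% of the sperm genes and 44.3% of the brain genes. A further 757 genes reached that level in every sperm library and in no brain column (1153 without 688). Without 688, 9226 genes were detected in sperm and 7795 in both, 84.5% and 50.2% of the sperm and the brain genes. In counts, 1 CPM is worth 6.45 to 38.1 in a sperm library and 515 to 568 in a brain column. A gene missed in sperm by this rule is not shown to be absent, since it can fall short in 1 library alone or be measured below 1 CPM. At 0.1 CPM, 12297 genes were detected in sperm, and at 1 CPM in at least 4 of 5 columns, 10801 were.

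With and without the 688 sperm library most calls were shared. Of the 14628 genes called, 14005 were called the same way without it, 5728 higher and 8277 lower. CSN3, which encodes kappa casein, was the 1 gene called in opposite directions: it stood at 5.66 CPM in the 688 library, had no count in the other 4 sperm libraries and stood at 0.0705 to 0.132 CPM in brain. Its log2 fold change was 5.19 with all 5 libraries and 5.90 without 699, and the block, which gave -0.084, did not call it. Among the sperm lists the counts of the axoneme and ion channel lists grew when 688 was left out, from 9 to 11 and from 8 to 10, that of the head cytoskeleton list went from 10 of 12 to 11 of 13, and those of the chromatin, tail, acrosome, germ cell metabolism, kinase and other haploid lists were the same. The brain lists had 66 lower and 4 higher in both fits.

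**Figure D5:**
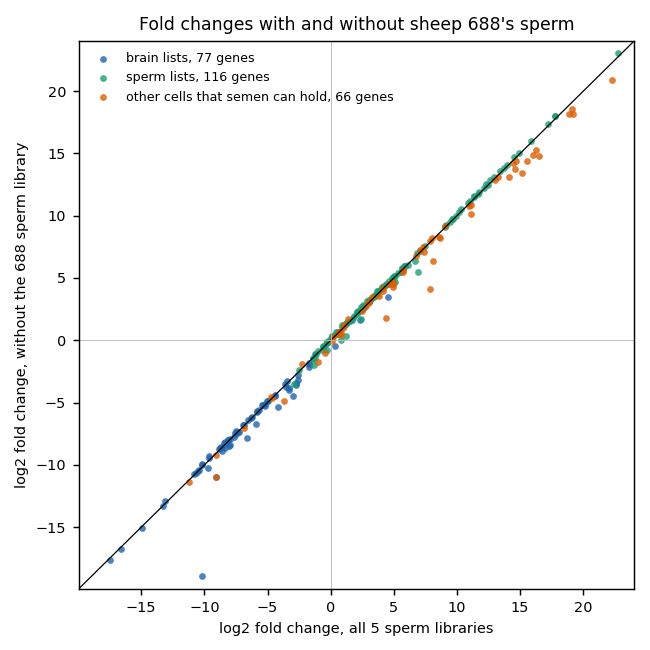
Log2 fold change of each list gene with all 5 sperm libraries (horizontal) and without the 688 sperm library (vertical), for 116 genes of the sperm lists, 66 of other cells that semen can hold and 77 of the brain lists; the line marks equal values. Most points lie near the line, and ADAM28, which falls from 7.90 to 4.09, is among those below it. The lowest point is THY1, whose sperm counts were all in 688, so that its value without 688 depends on the prior count.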

How the data were processed

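RNA was taken from sperm and 10 brain regions of 5 male sheep, with TRIzol, and sequenced as stranded mRNA libraries in paired reads of 150 bases, per the labels' protocols. The deposited values are raw counts of reads per gene: per the labels' design text, reads were trimmed with Trimmomatic 0.39, aligned with STAR 2.7.5a to the sheep assembly ARS-UI_Ramb_v3.0, and counted with Rsubread 2.20.0 in R 4.4.2. DESeq2 is named in the submitters' processing notes with no version. The strand setting and the treatment of reads with several matches are not given in the labels used here. All 31304 rows name a gene.

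The 10 regions of a sheep were summed, and 4 placeholder entries were left out. Genes were kept by filterByExpr, and sperm was compared with brain in edgeR 4.0.16 (quasi-likelihood test, TMM factors, prior count 0.125, Benjamini-Hochberg adjustment). The fit was first run on simulated counts in which few genes were changed, with rises and falls balanced. That run does not test the scaling of these data, where most genes were called. Calls needed an adjusted p under 0.05 together with a log2 fold change of 1 or more in size. Intervals (95%) and the floor of 3 counts cover counting error only. No sequence or coordinate of sheep was used here.

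The sheep number pairs the columns, since both tissues came from 1 animal. Deviations of same-numbered columns correlated at 0.037, 0.056, 0.033, 0.076 and 0.030 (687 to 699), and 4 of 5 sperm libraries correlated best with their own brain. The fit without the block is the one reported. Alternatives were RLE, upper quartile and plain scaling, other filters, DESeq2 1.42.0, limma 3.58.1 (voom), the block, other handling of the placeholder entries and leaving out each sheep. Those with 7 placeholder entries left out were chosen after seeing the data.

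The gene lists and the rule were chosen with earlier results of these data known. Named were PRM1, TNP1 and ODF1, up to 4 genes of each list with the highest mean level in the group the list is about and any member that moved against its list, the 6 called genes in each direction (LOC symbols left out, at least 10 CPM in every column of the higher group) with the largest smallest within-sheep ratio, the 6 genes with the highest smallest CPM over all 10 columns, the 6 with the highest mean share of sperm, and the 6 by which the 688 library most exceeded the others. PRM2, H1-6, PDHA1, PDHA2, PGK1, PGK2, KISS1, RBFOX3, PTPRC, CNR1, CSN3 and the genes given as without counts lie outside that rule and were chosen after their values were seen. A few genes that the rule names are not reported here.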

Additional observations from a re-analysis of the deposited data

Results flagged for a closer look

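Of 64 groups of 5 columns tested, 8 held 1 column far from the rest, with a gap to its nearest neighbour above 0.71 of the group's range. Chance flags about 1 in 20 groups when values are independent and normally distributed. These values were not transformed and some lists share genes, so the rate by chance here is not known. In the sperm group, the 688 library had 38.14 M counts (M for 1000000) left, against 11.7 M in the next. Its epididymis and accessory gland genes summed to 106.4 CPM, against 34.86 CPM in the next. The 694 sperm library stood alone with 849.6 CPM of Sertoli and Leydig cell genes (next 77.53 CPM) and with 851.9 CPM of reproductive axis genes (next 76.49 CPM); INHBA, which is in both lists, gave 840.3 CPM of each. Its neurotransmitter and neuropeptide genes summed to 103 CPM, against 49.68 CPM in the next, and CNR2 gave 49.9 CPM of them.

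Among brain columns, sheep 694 had 567.6 M counts left, against 517.5 M in the next. The meiotic genes summed to 10.6 CPM in the 688 brain, below 19.08 CPM in the next, and ribosomal protein genes to 20267 CPM in the 699 brain, above 17180 CPM in the next.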

How the results depend on the processing

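The direction of the comparison, more brain than sperm transcripts called, rested on the scaling, as the report gives. Of all genes, 6199 were called higher with TMM factors, 9380 with DESeq2 (8170 lower) and 4086 with the replicate block; without the 688 sperm library the block gave 3945 higher and upper quartile factors 5866 lower. The sperm lists had 80 members called higher, and 51 under a filter of 1 CPM in every column of 1 group, which tests fewer genes. Genes detected in both tissues were 6866, but 11398 at 0.1 CPM, 3039 at 5 CPM and 4202 with the 4 placeholder entries kept. Without each sheep in turn, genes called ranged from 13026 to 14096, higher from 5399 to 5915 and lower from 7525 to 8389, and without the 688 sperm library alone there were 15878, 6521 and 9357; from the 4 remaining sperm libraries without 688, they ranged from 14776 to 15485, from 5740 to 6482 and from 8778 to 9432. Without each sheep or the 688 sperm library, sperm list members called higher ranged from 70 to 85 and brain list members called lower from 60 to 66. Of 58 counts of list members, 24 stayed within 1.5 times under every alternative.

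Of 154 named genes that were called, 113 kept call and direction under every alternative that tested them. This was all 18 for 95 of these and at least 16 for the rest. Counting calls lost with the sign kept, the block, plain totals and leaving out sheep 699 ended 20, 16 and 18. The block also ended the calls of ATP13A5 and CSN3, whose sign changed. It changed no other call of a gene named in the report beyond those given or counted there, other than AMH. The log2 fold change took the opposite sign for some genes; the cause was not tested. On plain totals it was -0.91 for ALDOA, -0.30 for CAPZB, -0.13 for STAR, -0.89 for SLC2A1, -0.36 for RPLP1, -0.84 for HSP90AB1, -0.51 for GLUL and -0.91 for KEF53_p11. With limma voom it was -0.18 for ALDOA, -0.011 for SLC2A1, -0.57 for ATP13A5, -0.12 for ANGPTL4 and -0.45 for KEF53_p11. With the replicate block it was -0.15 for ALDOA, -0.082 for SLC2A1, -0.68 for ATP13A5, -0.0088 for ANGPTL4, -0.75 for KEF53_p11 and -0.084 for CSN3. With upper quartile factors it was 0.11 for HK1, 0.17 for RPS2, 0.19 for PSMC1, 0.23 for UQCRH and 0.85 for EIF2A. With no low-count filter it was -0.060 for HSP90AB1. With 7 placeholder entries left out it was -0.13 for HSP90AB1. With those and the mitochondrial entries left out it was -0.13 for HSP90AB1. With RLE factors it was 0.16 for EIF2A. With the 1 CPM filter it was 0.45 for EIF2A. With DESeq2 it was 0.15 for EIF2A. With the 4 placeholder entries kept it was 0.12 for EIF2A. Without each sheep, or without the 688 sperm library, it ran from -0.62 to 0.56 for ALDOA, -0.0023 to 1.06 for CAPZB, -0.46 to 0.70 for SLC2A1, -0.047 to 0.20 for HSP90AB1, -0.48 to 1.13 for GLUL, -2.05 to 5.32 for ATP13A5, -3.79 to 0.52 for EIF2A, -0.67 to 3.12 for ANGPTL4, -0.31 to 3.03 for CCN2, -0.47 to 0.57 for KEF53_p11 and -7.83 to 5.90 for CSN3. These genes were not called with all 5 libraries, other than ATP13A5 and CSN3; fitted values of CSN3 without 688 rest on no sperm count and depend on the prior count. The sperm libraries, with 6.45 to 38.1 M counts, limit what can be seen below about 1 CPM.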
